A study of Rattus norvegicus with 8 samples.

Results

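A set of 8 genes that mark dentate granule cells was followed in dorsal hippocampal tissue of drug-naive young adult male Sprague-Dawley rats. They are Prox1, C1ql2, C1ql3, Dock10, Rfx3, Stxbp6, Calb1 and Dsp, chosen by gene symbol out of 19721 named genes on the array. Each of the 8 had 1 probe set, and the annotation of each probe set held that symbol alone. The nicotine-sired group was 4 sons of sires that took nicotine themselves, at 0.03 mg/kg intravenously for 60 days. The saline-sired group was 4 sons of yoked saline sires. Each array held RNA from bilateral 1 mm3 cryostat punches and stood for a litter with a father of its own, so the arrays of a group were biological replicates. A punch holds every cell type of the region, and the labels do not say how much of it was dentate gyrus in each animal.

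Granule cells are the principal excitatory neurons of the dentate gyrus, the entry station of the hippocampus. They receive input from the entorhinal cortex and send mossy fibres to CA3 pyramidal cells, and new granule cells are added in adult rodents. Their identity depends on the transcription factor Prox1, which in mice keeps young neurons from taking on a CA3 fate.

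Signals are log2 values per probe set. A probe set was tested when its mean over the 8 arrays was above 6.30, the median of the 30323 gene-class probe sets, which kept 15161. By this rule 7 of the 8 genes were tested and Dsp, with a mean of 6.01, was not. The median gene-class signal ran from 6.25 to 6.29 on the nicotine-sired arrays and from 6.30 to 6.35 on the saline-sired arrays, and the median antigenomic background from 4.32 to 4.53 over all arrays. On nicotine-sired 4 the choroid plexus transcript Ttr read 13.07 and the mean centred signal of 6 striatal genes was 1.99, against at most -0.26 on the other nicotine-sired arrays. Values without that array are given below for the tested marker genes and for several of the other lists and genes.

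All 8 genes had a lower mean in nicotine-sired sons, as did 45.7% of kept probe sets, and none of the 7 that were tested passed an adjusted p of 0.05 (limma, Benjamini-Hochberg over 15161 probe sets, n = 4 per group). In that fit 2.06% of kept probe sets were called, 0.884% as lower and 1.18% as higher. The differences of the 7 had a median of -0.51 on the log2 scale, where the median of all kept probe sets was 0.017. At an unadjusted p under 0.05, 4 of the 7 were lower, against 10.1% of kept probe sets, and 0 were higher, against 13.9%. Prox1, C1ql2 and Stxbp6 had the largest differences, and C1ql3, Dsp and Calb1 the smallest. In bulk tissue, fewer granule cells, less RNA per granule cell and a smaller share of dentate gyrus in the punch cannot be told apart.

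Prox1, the granule cell transcription factor, read 7.99, 9.21, 9.76 and 9.61 on nicotine-sired arrays 1 to 4, against 10.42, 9.77, 10.10 and 10.23 on saline-sired arrays 1 to 4. All 4 nicotine-sired values lay below all 4 saline-sired values, by a gap of 0.0052 between nicotine-sired 3 and saline-sired 2. Of kept probe sets 6.15% had nicotine-sired values that all lay below and 8.19% had them all above. The mean was 9.14 ± 0.81 in nicotine-sired sons and 10.13 ± 0.27 in saline-sired sons (SD, n = 4 each), a difference of -0.99 ± 0.34 (SE; 95% interval -1.75 to -0.22; limma adjusted p = 0.129). The exact permutation p was 0.0286, the smallest that 4 against 4 arrays can give.

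Rfx3, a transcription factor of the RFX family known for switching on genes of cilia, read 9.60, 10.10, 10.43 and 10.65 on nicotine-sired arrays 1 to 4, against 11.02, 10.39, 10.57 and 10.83 on saline-sired arrays 1 to 4. The groups overlapped, since nicotine-sired 3 and 4 lay within the saline-sired range. The difference was -0.51 ± 0.22 (95% interval -0.99 to -0.02; limma adjusted p = 0.195; exact permutation p = 0.143).

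**Figure D1:**
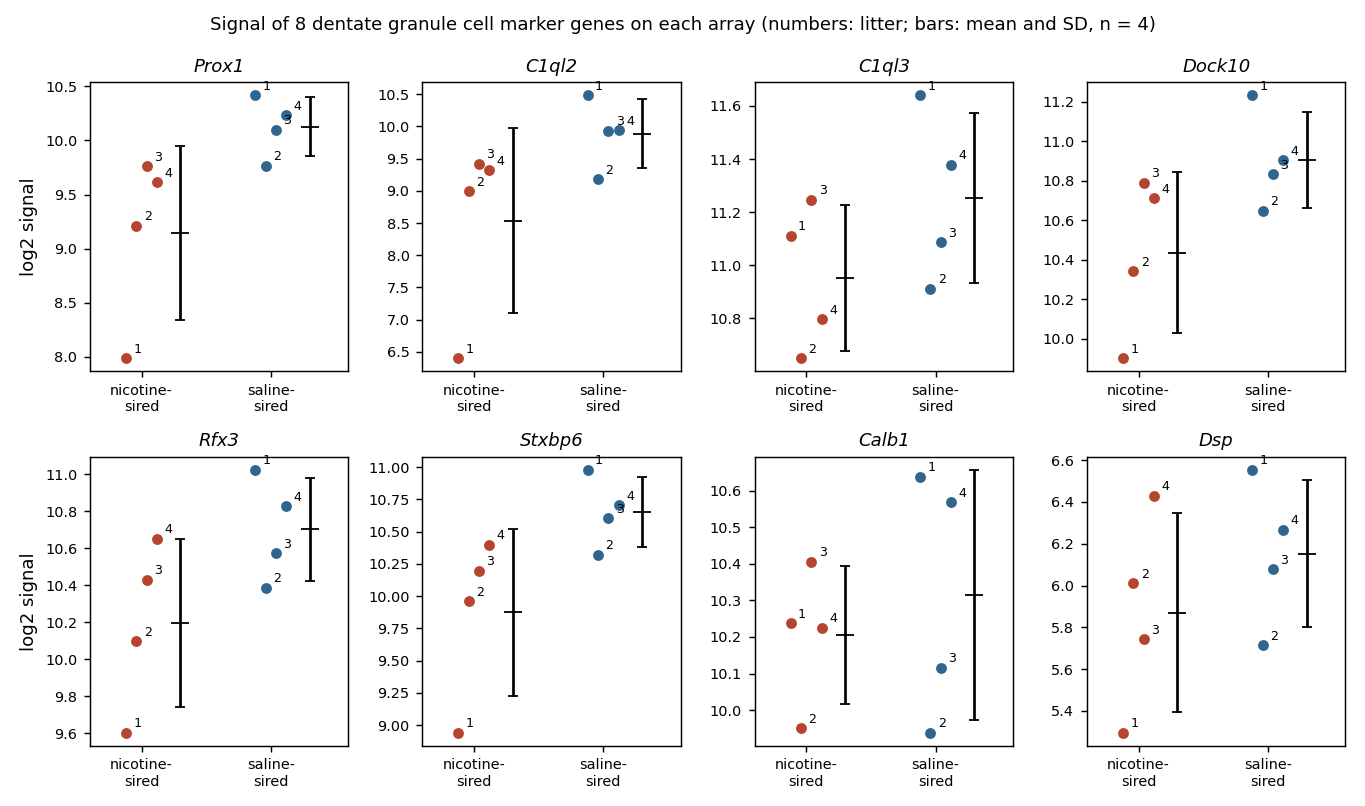
Log2 signal (vertical axis, a scale of its own in each panel) of the 8 dentate granule cell marker genes on the nicotine-sired and saline-sired arrays, with litter numbers beside the points and the mean and SD of 4 arrays to the right of each group. Only for Prox1 do the groups not overlap, and saline-sired 1 is the highest array in each panel.

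C1ql2 and C1ql3 encode secreted C1q-like proteins, which in mice are released by mossy fibres and help to place kainate receptors at the synapses on CA3 cells. C1ql2 read 6.40, 8.998, 9.42 and 9.32 on nicotine-sired arrays 1 to 4, against 10.48, 9.18, 9.94 and 9.95 on saline-sired arrays 1 to 4. Nicotine-sired 1 differed by -2.84 from the mean of the other nicotine-sired arrays and lay close to the filter value of 6.30. Without it the other 3 nicotine-sired arrays lay between 8.998 and 9.42, overlapping saline-sired 2. The mean was 8.53 ± 1.43 in nicotine-sired sons and 9.89 ± 0.53 in saline-sired sons (SD, n = 4 each). Its difference, -1.35 ± 0.61, exceeded those of the other 7 genes and had the widest error (95% interval -2.72 to 0.016; limma adjusted p = 0.213; exact permutation p = 0.0857).

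C1ql3 read 11.11, 10.65, 11.25 and 10.80 on nicotine-sired arrays 1 to 4, against 11.64, 10.91, 11.09 and 11.38 on saline-sired arrays 1 to 4. Here nicotine-sired 1 was not low, and the groups overlapped. The difference was -0.30 ± 0.17 (95% interval -0.69 to 0.085; limma adjusted p = 0.310). The group difference of C1ql2 minus that of C1ql3 was -1.05 (exact permutation p = 0.114, n = 4 per group), so the paralogs could not be shown to differ in their response.

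By the annotation in the files, which cites build Rnor_5.0, the C1ql2 transcript lies on chromosome 13 from 41484469 to 41486004 on the plus strand and that of C1ql3 on chromosome 17 from 81939086 to 81945581 on the minus strand. Promoters of 6 of the 8 genes, from 250 bases before to 50 after the start, came from RefSeq (build GRCr8). They were searched on both strands for GTTGCC, the core of the RFX binding motif, and for CAGATG and CAGCTG, E-boxes of the kind that neuronal basic helix-loop-helix factors bind. Of 33469 rat promoters of this length 12.2% held GTTGCC, 16.6% held CAGATG and 15.1% held CAGCTG. Among the 6 promoters 2 held GTTGCC, 3 held CAGCTG and 0 held CAGATG, with no overlap between matches. The promoters of C1ql2 and C1ql3 are shown because the genes are paralogs, and those of Rfx3 and Stxbp6 because they hold the RFX core. Capitals mark the matches.
C1ql2 promoter, chr13:34023652-34023951, plus strand: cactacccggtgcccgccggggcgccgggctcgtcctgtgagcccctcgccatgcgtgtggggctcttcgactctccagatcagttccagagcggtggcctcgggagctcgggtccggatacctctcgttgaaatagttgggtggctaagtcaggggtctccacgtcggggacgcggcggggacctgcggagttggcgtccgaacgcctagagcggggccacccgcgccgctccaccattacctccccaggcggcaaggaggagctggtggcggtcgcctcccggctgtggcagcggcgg
C1ql3 promoter, chr17:81038195-81038494, minus strand: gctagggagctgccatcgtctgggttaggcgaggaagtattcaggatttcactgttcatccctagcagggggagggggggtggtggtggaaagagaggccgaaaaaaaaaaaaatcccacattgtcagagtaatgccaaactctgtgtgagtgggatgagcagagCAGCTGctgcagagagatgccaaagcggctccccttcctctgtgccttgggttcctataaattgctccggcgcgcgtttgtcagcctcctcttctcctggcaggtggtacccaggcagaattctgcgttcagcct
Rfx3 promoter, chr1:235122373-235122672, minus strand: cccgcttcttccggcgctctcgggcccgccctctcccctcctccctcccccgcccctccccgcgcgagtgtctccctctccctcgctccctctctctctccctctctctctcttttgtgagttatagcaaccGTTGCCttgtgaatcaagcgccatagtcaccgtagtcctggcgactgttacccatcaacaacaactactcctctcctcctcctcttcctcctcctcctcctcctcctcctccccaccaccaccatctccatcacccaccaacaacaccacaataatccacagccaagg
Stxbp6 promoter, chr6:67884289-67884588, minus strand: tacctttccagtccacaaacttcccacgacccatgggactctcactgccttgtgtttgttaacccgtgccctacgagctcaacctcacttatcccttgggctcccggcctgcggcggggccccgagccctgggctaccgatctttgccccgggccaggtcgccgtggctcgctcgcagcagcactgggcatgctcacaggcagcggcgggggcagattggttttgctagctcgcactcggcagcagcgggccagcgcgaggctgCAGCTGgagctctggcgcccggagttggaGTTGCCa
The C1ql2 promoter had 70.3% G and C and 33 CpG dinucleotides, and that of C1ql3 54.7% and 9, where the median of all promoters was 51.7% and 7. These matches are a description of the letters in this window.

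Stxbp6, or amisyn, binds syntaxin and restrains vesicle release. It read 8.94, 9.96, 10.20 and 10.40 on nicotine-sired arrays 1 to 4, against 10.98, 10.32, 10.60 and 10.71 on saline-sired arrays 1 to 4. Only nicotine-sired 4 reached above the lowest saline-sired array. The mean was 9.87 ± 0.65 in nicotine-sired sons and 10.65 ± 0.27 in saline-sired sons (SD, n = 4 each), a difference of -0.78 ± 0.28 (95% interval -1.41 to -0.15; limma adjusted p = 0.142; exact permutation p = 0.0571).

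Dock10, a guanine nucleotide exchange factor, read 9.90, 10.34, 10.79 and 10.71 on nicotine-sired arrays 1 to 4, against 11.23, 10.65, 10.83 and 10.91 on saline-sired arrays 1 to 4. Nicotine-sired 1 and 2 lay below every saline-sired array, and nicotine-sired 3 and 4 did not. The difference was -0.47 ± 0.19 (95% interval -0.90 to -0.03; limma adjusted p = 0.182; exact permutation p = 0.114).

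Calb1 encodes the calcium buffer calbindin, which is present in mature granule cells and also in some CA1 pyramidal cells and interneurons. It read 10.24, 9.95, 10.41 and 10.22 on nicotine-sired arrays 1 to 4, against 10.64, 9.94, 10.12 and 10.57 on saline-sired arrays 1 to 4. All 4 nicotine-sired values lay within the saline-sired range. The difference was -0.11 ± 0.16 (95% interval -0.47 to 0.25; limma adjusted p = 0.711), and it was 0.016 with arrays weighted by their quality.

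Dsp encodes desmoplakin, which ties desmosomes to intermediate filaments. It read 5.30, 6.01, 5.74 and 6.43 on nicotine-sired arrays 1 to 4, against 6.55, 5.71, 6.08 and 6.27 on saline-sired arrays 1 to 4. These values overlapped and lay mostly under the filter. In a fit of all gene-class probe sets without the filter the difference was -0.28 ± 0.24 (limma adjusted p = 0.545).

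**Figure D2:**
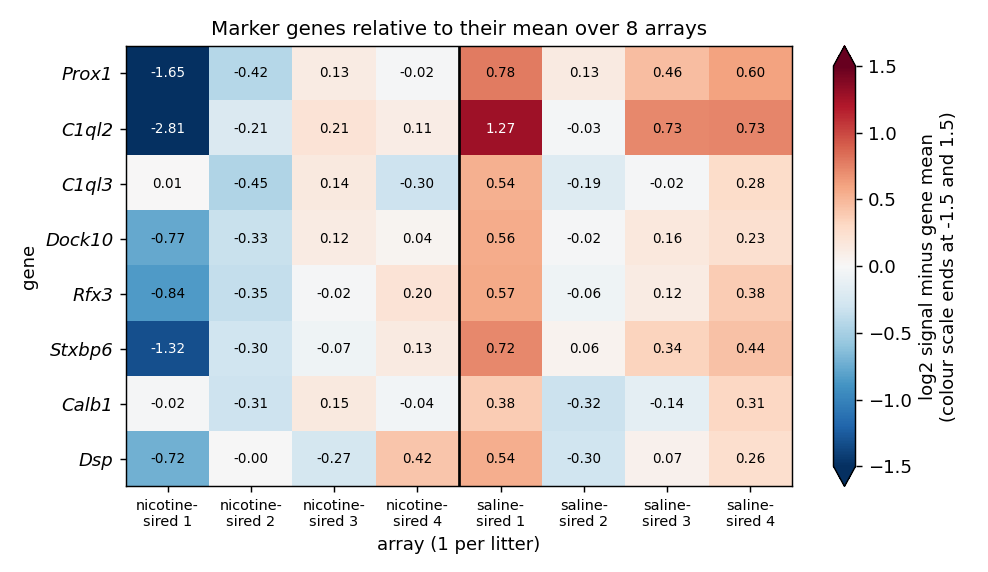
Log2 signal minus the gene's mean over the 8 arrays (colour and printed value) for the 8 marker genes in rows and the 8 arrays in columns, nicotine-sired to the left of the line. Nicotine-sired 1 reaches -2.81 for C1ql2 and -1.65 for Prox1 but 0.01 for C1ql3 and -0.02 for Calb1, and saline-sired 1 is the highest array for all 8 genes.

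The genes varied together among saline-sired arrays, and only in part among nicotine-sired arrays. Among saline-sired arrays, saline-sired 1 was the highest and saline-sired 2 the lowest for all 8 genes, whereas over kept probe sets saline-sired 1 was the highest in 20.6% and saline-sired 2 the lowest in 24.2%. Among nicotine-sired arrays, nicotine-sired 1 was the lowest for 6 genes and nicotine-sired 2 for C1ql3 and Calb1. Nicotine-sired 1 was the lowest of all 8 arrays for those 6 genes, against 15.3% of kept probe sets. These counts describe genes of shared samples and are not replicates.

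The sizes of the differences were spread over the 8 genes with an SD of 0.41. Dock10 and Rfx3 had the most alike profiles, with a root mean square distance of 0.097 over the 8 arrays, and C1ql3 and Calb1 lay 0.138 apart. C1ql2 and Calb1 were the least alike, at 1.10. Of the 28 pairs of genes, 5 had a within-array difference that separated the groups at the smallest exact permutation p of 0.0286. These were Prox1 with Dock10, Rfx3 and Calb1, C1ql2 with Calb1, and Rfx3 with Stxbp6. After adjustment over the 28 pairs the smallest value was 0.16, so no pair was shown to respond differently.

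Nicotine-sired 1 set much of the size of the differences. Without it Prox1 differed by -0.60 ± 0.17, C1ql2 by -0.64 ± 0.26, Stxbp6 by -0.47 ± 0.15, Rfx3 by -0.31 ± 0.17 and Dock10 by -0.29 ± 0.15. C1ql3 differed by -0.36 and Calb1 by -0.12 without it, and Dsp by -0.09. All 8 means were still lower in nicotine-sired sons, and the limma adjusted p was 0.121 for Prox1 and above that for the other 6 that were tested. Without nicotine-sired 4, the array with the highest Ttr, Prox1 differed by -1.14 ± 0.35, Stxbp6 by -0.95 ± 0.27 and Rfx3 by -0.66 ± 0.20. Without it C1ql2 differed by -1.61 ± 0.64, Dock10 by -0.56 ± 0.20, C1ql3 by -0.25 and Calb1 by -0.12. In that fit the lowest limma adjusted p of the 7 genes was 0.0780, for Stxbp6. Without saline-sired 1, the highest array for all 8 genes, Prox1 differed by -0.89 ± 0.38, C1ql2 by -1.15 ± 0.68 and Stxbp6 by -0.67 ± 0.31. Rfx3 differed by -0.40, Dock10 by -0.36, C1ql3 by -0.17 and Calb1 by -0.0028 there. The lowest limma adjusted p was then 0.273, for Prox1, and 1 of the 7 genes had an unadjusted limma p under 0.05.

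**Figure D3:**
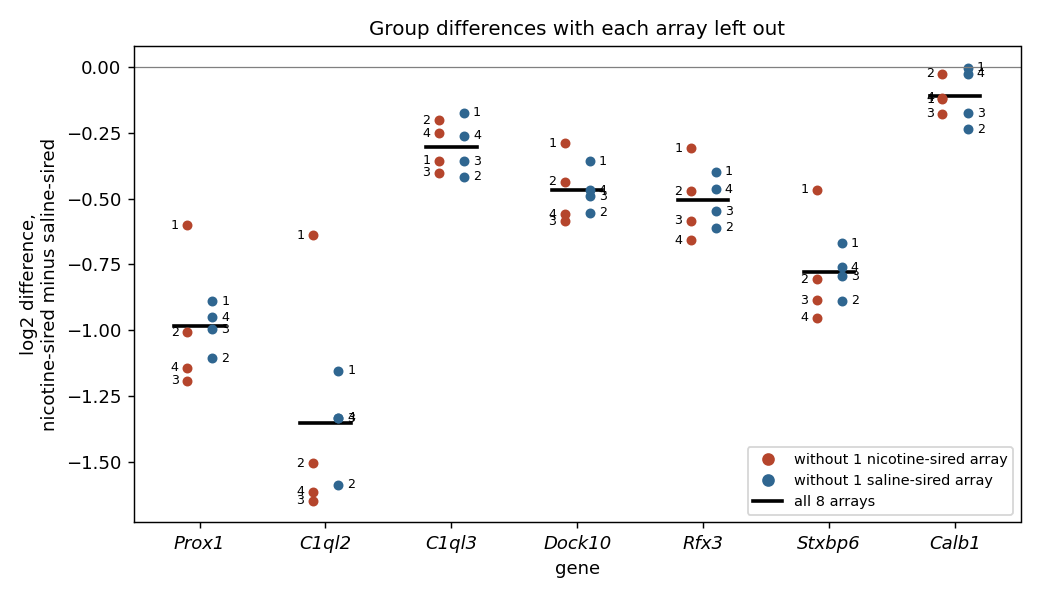
Log2 difference, nicotine-sired minus saline-sired (vertical axis), of the 7 tested genes with all 8 arrays (black bars) and with each array left out (points, with the litter number of the array left out). Leaving out nicotine-sired 1 moves Prox1 to -0.60 and C1ql2 to -0.64, and every point is below 0.

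Other genes of granule cells were examined as a list of 23, of which 21 were tested. Of these, 17 were lower in nicotine-sired sons, 3 fell past the adjusted threshold and 0 rose, and the median difference was -0.33. Without nicotine-sired 1 the median was -0.16, with 17 still lower. The share called lower among all kept probe sets was 0.884%. Groups did not overlap for 6 of the 21, against 6.15% of kept probe sets with nicotine-sired values below. The list was put together with earlier results of these arrays known, so its direction is not independent evidence.

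Sema5a, a semaphorin of axon guidance, read 9.77, 10.36, 10.42 and 10.55 on nicotine-sired arrays 1 to 4, against 11.32, 10.87, 11.16 and 10.96 on saline-sired arrays 1 to 4. It fell by 0.81 ± 0.16 (limma adjusted p = 0.0430), with no overlap. Neurod1, a transcription factor of granule cell differentiation, fell by 0.63 ± 0.13 and Jun, a subunit of the AP-1 factor, by 0.46 ± 0.09 (limma adjusted p of 0.0430 and 0.0427). These calls depended on single arrays and on the settings. With no filter the limma adjusted p was 0.0563 for Sema5a and 0.0587 for Neurod1 and Jun. Without a variance trend the limma adjusted p of the 3 lay between 0.0502 and 0.0505, and with the litter number as a block between 0.0990 and 0.112. With quantile normalization Sema5a had 0.0552. Sema5a passed in 3 of the 8 fits that left out an array, and Neurod1 and Jun in 2 of 8 each. Without nicotine-sired 1, where Prox1 and C1ql2 were lowest, Sema5a fell by 0.64 ± 0.11 (limma adjusted p = 0.0467), Neurod1 differed by -0.54 (0.0823) and Jun by -0.40 (0.0784).

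Trpc6, a cation channel, Ablim3, an actin-binding protein, and Maml2, a Notch coactivator, also had non-overlapping groups, with differences of -0.81, -0.47 and -0.42, and did not pass (limma adjusted p from 0.0870 to 0.118). At the other end, Penk, the precursor of enkephalins, differed by 0.46 ± 0.58, Npy1r by 0.19 and Glis3 by 0.16, none of which passed. Penk read 10.65 on nicotine-sired 4, and without that array it differed by -0.18 and Glis3 by 0.0089. Gabrd and Gabra4, subunits of GABA-A receptors on granule cells, differed by -0.16 and -0.05. Tdo2 and Lct were under the filter.

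**Figure D4:**
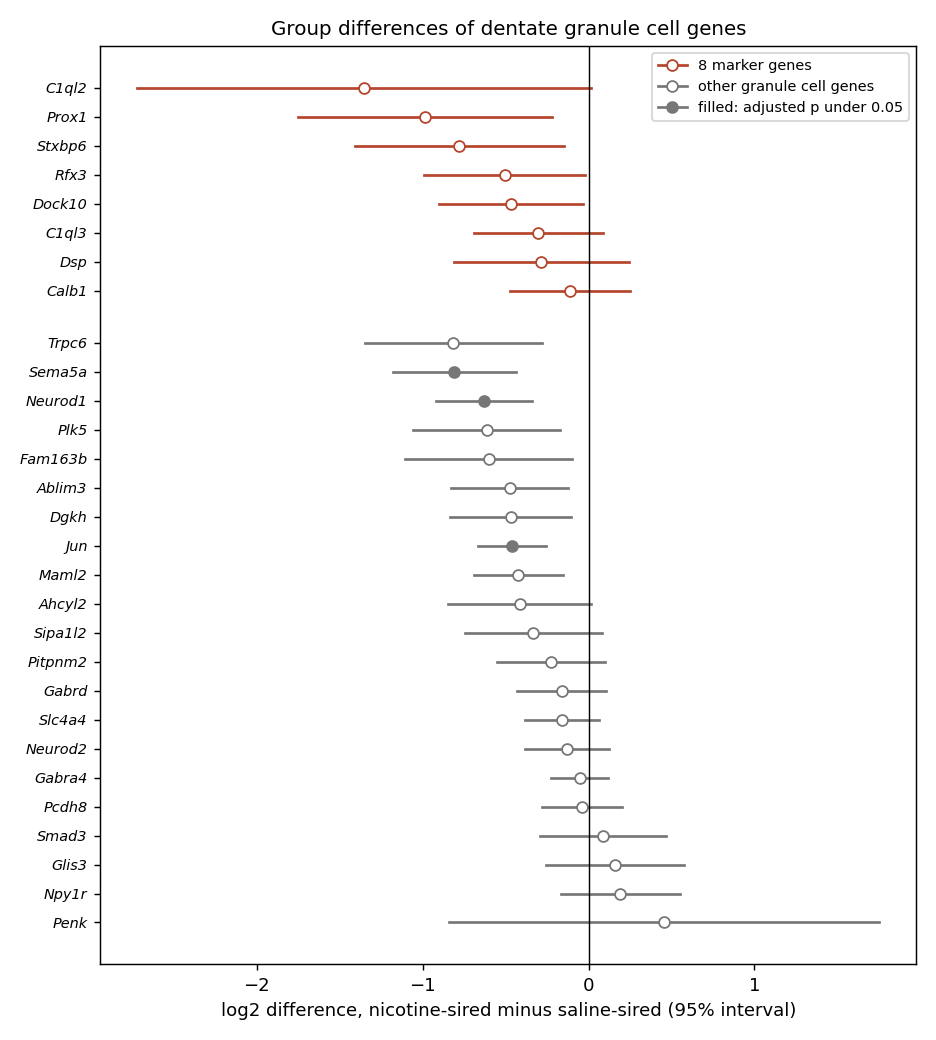
Log2 difference, nicotine-sired minus saline-sired, with 95% intervals for the 8 marker genes (top) and 21 other granule cell genes (bottom), where filled points passed an adjusted p of 0.05. Among the marker genes none is filled and all lie below 0, and among the others Sema5a, Neurod1 and Jun are filled. The interval of Dsp comes from the fit without the filter.

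Genes of young granule neurons did not share one direction. Of 10 listed, 7 were tested, 4 lower and 3 higher, with 0 past the threshold and a median of -0.10 that turned to 0.060 without nicotine-sired 1. Bhlhe22 differed by -0.55 ± 0.13, Draxin by 0.47 ± 0.17 and Igfbpl1 by 0.45 ± 0.34 (limma adjusted p from 0.0617 to 0.453). Without nicotine-sired 4 Igfbpl1 differed by 0.028 and Draxin by 0.30. Of 7 genes of mossy cells and the hilus, 6 were higher and 1 lower, with 0 past the threshold and a median of 0.072, which was 0.036 without nicotine-sired 1 and 0.17 without nicotine-sired 4. Ociad2 differed by 0.76, Nmb by -0.96 and Drd2 by 0.95, the last being 9.34 on nicotine-sired 4 and at most 6.57 on the other nicotine-sired arrays. Without nicotine-sired 4 Drd2 differed by 0.21.

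Partners of the C1q-like proteins were lower in 6 of 9 tested genes, with 0 past the threshold and a median of -0.056, which was -0.014 without nicotine-sired 1. The kainate receptor genes Grik2 and Grik4, 2 of the 9, had nicotine-sired values that all lay below the saline-sired ones. This held for 6.15% of kept probe sets. Their differences were -0.57 ± 0.15 and -0.92 ± 0.30 (limma adjusted p of 0.0718 and 0.111). Grik4 was also on the list of CA2 and CA3 genes. Nrxn3, a neurexin, differed by -0.22. C1ql1, another member of the C1q-like family, differed by 0.041.

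Pyramidal cell genes of the neighbouring hippocampal fields were examined beside the granule cell genes. Each of the 8 tested CA1 pyramidal genes had a higher mean in nicotine-sired sons (median difference 1.76). Of these 1 passed, Dcn, also a fibroblast gene, which rose by 2.11 ± 0.41 (limma adjusted p = 0.0398) and passed in 3 of the 8 fits that left out an array. Its limma adjusted p was 0.0522 with no filter and 0.116 with the litter number as a block. Of all kept probe sets 1.18% were called higher. All 8 CA1 genes were higher at an unadjusted limma p under 0.05, against 13.9% of kept probe sets. Their median difference was 1.48 without nicotine-sired 1 and 2.08 without nicotine-sired 4. This list too was put together with earlier results of these arrays known. Man1a and Lefty1, the other 2 of the list, were not tested. The mean centred signal of the 8 ran from -0.11 to 1.67 on nicotine-sired arrays and from -1.62 to -0.05 on saline-sired arrays. Ndst4 and Mpped1 differed by 2.05 and 1.74.

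On nicotine-sired 1 the CA1 mean was the highest of the 8, at 1.67, and that of the 7 granule cell genes the lowest, at -1.06. On saline-sired 3 the CA1 mean was the lowest, at -1.62, and the granule cell mean was 0.24, below those of saline-sired 1 (0.69) and saline-sired 4 (0.42). On nicotine-sired 4 and saline-sired 4 the CA1 means were -0.11 and -0.05, and the granule cell means 0.018 and 0.42. The part of the CA1 level in the granule cell differences was not tested.

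Of 12 tested CA2 and CA3 genes 6 were higher and 6 lower, with 0 past the threshold and a median of -0.0037, which was 0.058 without nicotine-sired 1 and -0.11 without nicotine-sired 4. Their mean was -0.97 on nicotine-sired 1 and lay between -0.08 and 0.38 on the other 7 arrays. Rgs14 differed by 0.69, St18 by -0.41 and Grik4 by -0.92.

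**Figure D5:**
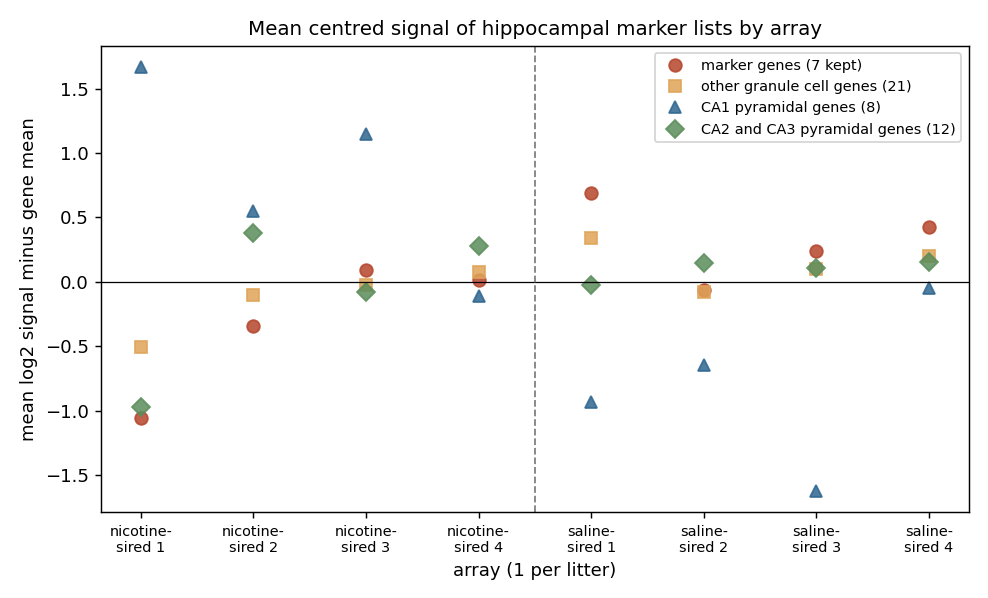
Mean log2 signal minus each gene's mean over the 8 arrays (vertical axis) for 7 granule cell marker genes, 21 other granule cell genes, 8 CA1 genes and 12 CA2 and CA3 genes on each array, nicotine-sired to the left of the dashed line. Nicotine-sired 1 has the highest CA1 mean (1.67) and the lowest means of the other 3 lists, and the granule cell means on saline-sired arrays run from -0.06 to 0.69.

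Of the other cell types, oligodendrocyte genes were higher in 8 of 8 (median 0.46, 0 passed), with Cnp, Opalin and Mag differing by 0.46, 0.60 and 0.69. Microglial genes were higher in 8 of 8 (median 0.26, 0 passed), with Cx3cr1, Csf1r and C1qb at 0.33, 0.36 and 0.25. Astrocyte genes were higher in 6 of 7 (median 0.14, 0 passed), with S100b, Aqp4 and Gfap at 0.18, 0.14 and 0.19.

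Endothelial and pericyte genes were higher in 8 of 8 (median 0.25), and 1 passed, Rgs5, which rose by 0.39 ± 0.07 (limma adjusted p = 0.0379) and passed in 2 of the 8 fits that left out an array, with Flt1 and Pdgfrb at 0.23 and 0.25. The limma adjusted p of Rgs5 was 0.0544 with no filter, 0.0504 with median centring and 0.109 with the litter number as a block. Interneuron genes were higher in 7 of 9 (median 0.035, 0 passed), with Cck, Vip and Pvalb at 0.63, 0.68 and 0.29. Their median was 0.064 without nicotine-sired 1 and 0.057 without nicotine-sired 4. Striatal genes were higher in 6 of 6 (median 0.47, 0 passed), with Ppp1r1b, Adora2a and Drd1 at 0.56, 0.43 and 0.64. Choroid plexus genes were higher in 3 of 4 (median 0.43, 0 passed), with Folr1, Kl and Aqp1 at 1.16, 0.69 and 0.17. Both lists had their highest level on nicotine-sired 4. The mean centred signal of the choroid plexus genes was 3.66 there and 0.87 on saline-sired 1. Without nicotine-sired 4 the striatal median was -0.055, with 2 of 6 higher. Ppp1r1b, Adora2a and Drd1 then differed by 0.11, 0.030 and -0.061. Without it the choroid plexus median was -0.56, with 1 of 4 higher, and Folr1, Kl and Aqp1 differed by 0.43, -0.84 and -0.27. Without nicotine-sired 1 these medians were 0.71 and 0.90. The granule cell mean on nicotine-sired 4 was 0.018, between those of the other nicotine-sired arrays. The part of these cell types in the granule cell differences was not tested.

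By profile, the genes most like the mean of the 8 markers over the 8 arrays were Fam163b, C5h8orf34, Pxdn, Filip1 and Tenm1, with root mean square distances of 0.071, 0.095, 0.103, 0.112 and 0.114 log2 units. The median distance of 12665 candidate probe sets was 0.508. Fam163b, itself on the list of other granule cell genes, read 8.80, 9.61, 9.81 and 9.71 on nicotine-sired arrays 1 to 4, against 10.40, 9.71, 10.004 and 10.22 on saline-sired arrays 1 to 4. Nearest to Prox1 alone were Lrrc3b, Tiam1 and Pdyn, the precursor of dynorphins, a neuropeptide family of mossy fibres, at 0.124, 0.127 and 0.140. The group differences of these 8 genes ran from -0.89 to -0.47, and none passed (limma adjusted p from 0.121 to 0.265). They were chosen for likeness over the same arrays, so their shared direction follows from the choice and is not independent evidence.

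Of the 8 genes 2 were called lower in the authors' deposited table at an adjusted p of 0.05, Prox1 with 0.0288 and Stxbp6 with 0.0437, and 2.81% of gene-class probe sets were. The authors' deposited table gives 0.0635 for Rfx3, 0.0833 for C1ql2, 0.0981 for Dock10, 0.297 for Dsp, 0.775 for C1ql3 and 0.822 for Calb1. Its signed folds, where a minus marks lower in nicotine-sired sons, are -1.98 for Prox1, -2.55 for C1ql2 and -1.71 for Stxbp6 in the authors' deposited table. The array values are the same in both analyses and the tests are not, and the labels and headers do not name the authors' model.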

How the data were processed

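Total RNA of 8 dorsal hippocampal punches was hybridised to arrays as biotinylated cDNA, per the labels' protocols. The deposited tables hold log2 signals for 36685 probe sets, identical in both. MAS5 is named without a version in the submitters' processing notes; no label or header names the normalization or when arrays were scanned. The authors' deposited table also holds their p-values, adjusted p-values, a linear ratio and a signed fold score, per the file headers. Control classes (6362 probe sets) were left out. Gene IDs were matched to RefSeq names (GRCr8) for current symbols, and 20323 gene-class probe sets had 1 symbol, 1927 several and 8073 none. No pseudocount was added.

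Groups were taken from the sample titles. Group differences come from limma 3.58.1 under R 4.3.3 (lmFit, eBayes with a trend, two-sided), adjusted by Benjamini-Hochberg over 15161 kept probe sets, and errors are its standard errors. The fit was tested on simulated data. Single values were compared by two-sided exact permutation over 70 assignments. A gene with several probe sets was read from the one with the highest mean. Centred signals are log2 values minus the gene's mean over the 8 arrays, averaged over a list. Named genes were the 8 markers, the 3 with the smallest p in each other list, those that passed, and the 5 and 3 nearest profiles; others were chosen after their values were seen, as was the comparison of pairs. The members and lists were chosen with earlier results of these data known. The number of arrays limits precision.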

Additional observations from a re-analysis of the deposited data

Results flagged for a closer look

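For 46 of the named genes, Ttr not included, 92 groups of 4 values were examined. In 12 of them an array lay far from the other 3 of its group, where chance gives about 1 in 20 (4.6). Among the 8 granule cell markers there was 1. C1ql2 read 6.40 on nicotine-sired 1, against 8.998 to 9.42 on the other nicotine-sired arrays. The genes named for their nearest profiles were not among the 46. Of those, Tiam1 and C5h8orf34 also lay far below the other nicotine-sired arrays on nicotine-sired 1, so C1ql2 was not alone there. Of the 12, 9 were on nicotine-sired 4, the array with the highest Ttr, and genes of shared lists are not independent. On that array the choroid plexus genes Kl, Folr1 and Aqp1 read 11.44, 9.51 and 8.48. The striatal genes Ppp1r1b, Drd1 and Adora2a read 10.64, 9.03 and 8.63 there, and Drd2, from the mossy cell and hilar list, read 9.34. Igfbpl1 read 8.52 there. Aqp4 read 11.89, against 11.79 to 11.80 on the other nicotine-sired arrays. Ndst4 read 6.24 on saline-sired 3, against 7.01 to 7.07 on the other saline-sired arrays, and Vip read 7.52 on saline-sired 4, against 6.54 to 6.69.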

How the results depend on the processing

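None of the 7 tested marker genes passed in limma under the main or any of the 17 other settings. With all arrays 4 of the 7 had an unadjusted limma p under 0.05. With each array left out that count ran from 1, without saline-sired 1, to 6, without saline-sired 2. The median difference of the 7 stayed below 0, from -0.66 to -0.36 with each array left out. Prox1 ranged from -1.19 to -0.60 and C1ql2 from -1.65 to -0.64 there. Calb1 turned to 0.016 with array weights, and the cause was not tested. The count over all probe sets was 313 (179 higher, 134 lower) and moved to 155 without a filter (97 higher, 58 lower), to 181 with a stricter filter (82 and 99), to 1201 with array weights (685 and 516) and to between 0 and 737 with each array left out. With each array centred on its median there were 155 higher and 192 lower calls, and with quantile normalization 165 and 138. By limma it was 0 without saline-sired 1 or saline-sired 3, where 2724 and 2932 had an unadjusted p under 0.05. With the litter number as a replicate block limma called 0 probe sets (3326 at an unadjusted p under 0.05) and 0 markers. Same-numbered arrays deviated from their group means with correlations of -0.141, 0.181, -0.052 and -0.168, so the numbers are not taken as pairs. The markers had 1 probe set each, so averaging rows changed nothing. The values without nicotine-sired 4 for the other lists were chosen after seeing the data. Dsp lay under the filter and has an adjusted p only without it.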
